A study of Mus musculus with 12 samples.

Results

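The BCL2 family genes described here are 9 genes chosen by symbol, of 54839 features in the deposited count table. They comprise the pro-survival genes Bcl2, Bcl2l1 (encoding BCL-XL), Bcl2l2 (BCL-W) and Mcl1, the effector gene Bak1, and the BH3-only genes Bid, Bcl2l11 (BIM), Bik and Bmf. The rule uses no expression value, but the genes were chosen with earlier results of these data known. All 9 were among the 17121 genes that passed the filter on low counts. Poly-A RNA-seq was run on hepatocytes sorted from the livers of male p16-Tom mice on a C57BL/6 background, whose age is not given in the sources used here. All mice were heterozygous for p16-CreERT2 and carried R26-CAG-LSL-tdTomato-WPRE, and all received tamoxifen, so that cells with p16Ink4a promoter activity at that time became tdTomato-positive (Tom+) and the others stayed tdTomato-negative (Tom-). The 12 libraries formed 4 groups of 3, namely Tom- and Tom+ hepatocytes of mice given corn oil (the vehicle) and Tom- and Tom+ hepatocytes of mice given CCl4, a hepatotoxin that injures the liver around the central vein and causes fibrosis when given repeatedly. Tom+ therefore marks Cre activity in a reporter with a Neo cassette in the Cdkn2a locus, and not a measured p16Ink4a level. The labels number the libraries but do not say that they came from separate mice, so p-values measure the spread between these libraries, which may be technical.

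BCL2 family proteins decide whether the outer mitochondrial membrane is opened during apoptosis. BAK and BAX are the effectors that form the pores, pro-survival members hold them in check, and BH3-only members neutralise the pro-survival proteins or activate the effectors directly. In hepatocytes MCL1 and BCL-XL are the pro-survival proteins known to be needed for survival, and BID connects death receptors to the mitochondria once caspase-8 has cleaved it. Pro-survival members are also the targets of BH3-mimetic drugs, some of which have been used to remove senescent cells. Much of this control acts on proteins and not on mRNA, and the measurements here are of mRNA.

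Total counts ranged from 37568584 to 75331424 per library. With CCl4 the summed level of 8 hepatocyte markers was 97002 to 135760 CPM, against 0.657 to 312 CPM for each of 6 lists of 8 markers of other liver cells. The reporter transcript, which checks the labels, was at 1316 to 1369 CPM in Tom+ CCl4 and 120 to 263 CPM in Tom- CCl4. Among the oil libraries it went against the label in the library labelled Tom- oil replicate 1 (1794 CPM) and in the library labelled Tom+ oil replicate 2 (135 CPM), so every direction between the oil fractions is that of the labels, and results that rest on these libraries were also computed without them. With oil, replicate 1 was thus high in both fractions (1546 CPM in Tom+) and replicate 2 low in both (157 CPM in Tom-). Only replicate 3 with oil differed in reporter as labelled, at 143 CPM in Tom- and 1225 CPM in Tom+. Counts of oil pairs below follow the labels. Cdkn2a, which encodes p16Ink4a and p19Arf, had 8 to 21 counts in Tom- CCl4, 0 to 6 in Tom+ CCl4 and 0 to 8 with oil. With CCl4 its counts thus went against the Tom+ label. They are few and do not separate p16Ink4a from p19Arf. By qPCR, in hepatocytes from a separate CCl4 and tamoxifen schedule, the paper reports higher p16Ink4a in Tom+ than in Tom-. Markers of the zone around the central vein (zone 3) summed to 3066 to 4124 CPM in Tom+ CCl4 and 1299 to 2200 CPM in Tom- CCl4, and those of the periportal zone 1 to 5093 to 6573 and 8126 to 10164 CPM. With oil the order of zone 3 was the other way, at 738 to 2447 CPM in the libraries labelled Tom+ and 1906 to 5008 CPM in those labelled Tom-. These sums moved with the fraction, and their part in any difference between Tom+ and Tom- was not tested.

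The promoter of Bcl2l11 is shown because Bcl2l11 was the member whose level was the higher one in all 4 comparisons of groups, Tom+ over Tom- and CCl4 over oil, and because BIM is a known target of FOXO transcription factors. Of 13 RefSeq promoter windows (GRCm38.p6, 250 bases before to 50 after a transcript start) that matched 8 of the 9 genes by symbol, this was the 1 window that held any of 4 motifs searched on both strands. The other window of Bcl2l11, chr2:128127325-128127624, held none of them. The motifs were the FOXO core GTAAACA, found in 3.65% of all 32851 promoter windows of the same length, the AP-1 site TGACTCA in 5.20%, the CRE TGACGTCA in 1.79% and the STAT site TTCNNNGAA in 8.30%. The FOXO core, in capitals, starts at position -227 from the transcript start in chr2:128125788-128126087 on the plus strand, and is a match of letters, not a measured binding site.
Bcl2l11 promoter: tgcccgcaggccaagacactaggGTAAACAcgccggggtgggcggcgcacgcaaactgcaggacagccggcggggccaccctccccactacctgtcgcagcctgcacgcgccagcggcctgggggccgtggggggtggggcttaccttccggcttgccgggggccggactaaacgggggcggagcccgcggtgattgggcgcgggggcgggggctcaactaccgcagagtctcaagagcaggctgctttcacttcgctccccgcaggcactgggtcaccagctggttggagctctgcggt

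Per length, Mcl1 was the most abundant of the 9 transcripts in 12 of 12 libraries. Its level ranged from 50.7 to 80.7 TPM (transcripts scaled by gene length and library total), with a median of 61.5 TPM, and was 3.66 to 4.68 times that of Bcl2l1, the next gene, in the same library. Mcl1 made up 67.4 to 74.4% of the summed TPM of the 4 pro-survival genes. Bcl2l1 lay between 12.9 and 19.3 TPM and was above Bak1 in 12 of 12 libraries. Bak1 and Bcl2l2 could not be ordered, since Bak1 was the higher in only 7 of 12 libraries and both had medians near each other, at 9.93 and 9.83 TPM. Bid followed with a median of 7.63 TPM and Bmf with 3.60 TPM, each below the gene before it in 12 of 12 libraries. Bcl2l11 and Bik, with medians of 0.866 and 0.672 TPM, were the other neighbours whose order changed, with Bcl2l11 the higher in 9 of 12 libraries. Bcl2 was the lowest at 0.0781 to 0.211 TPM in all 12 libraries, so that the pro-survival member that gave the family its name contributed at most 0.270% of the pro-survival TPM in any library. TPM served only for order and shares. Between Tom+ and Tom- hepatocytes of CCl4-treated mice the median gene with at least 1 TPM differed by 0.23 on the log2(TPM + 1) scale, against 0.03 on the log2(CPM + 1) scale, and of the 36 differences between group means of the 9 genes 32 had the same sign on both scales. Differences between groups are therefore given in CPM (counts scaled by library total, with TMM factors from edgeR).

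**Figure D1:**
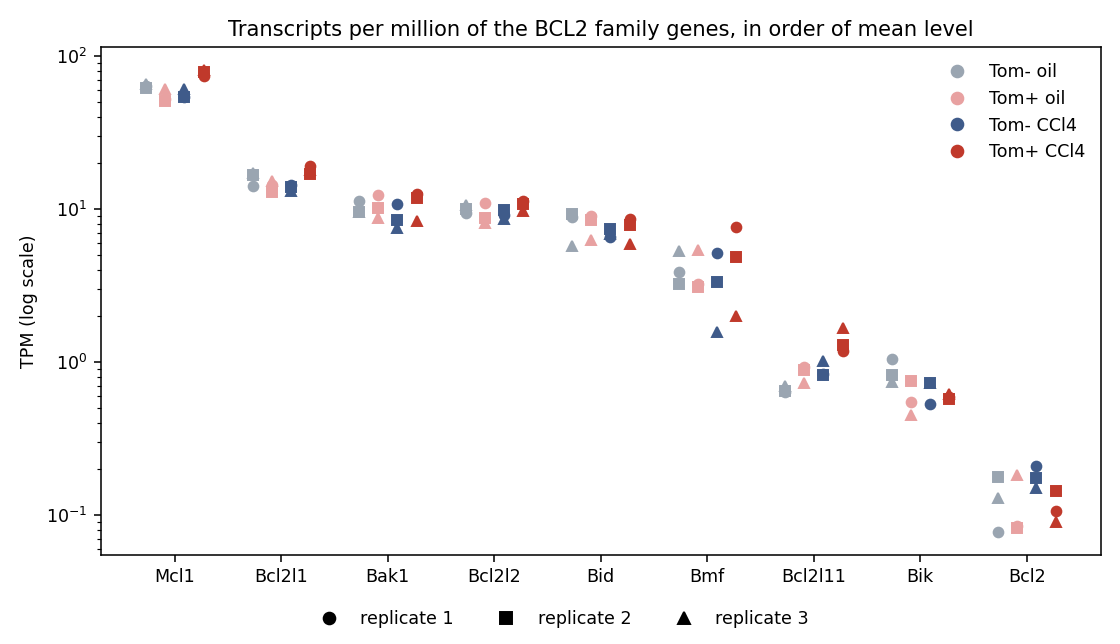
TPM (log axis) of each BCL2 family gene in each of the 12 libraries, with genes ordered by mean TPM, colours for the 4 groups and symbols for the replicate numbers. Mcl1 lay at 50.7 TPM or more in every library and Bcl2 at 0.211 TPM or less, with Bak1 and Bcl2l2 overlapping.

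A call required both an absolute log2 fold change above 0.75 and an adjusted p-value below 0.05 in the quasi-likelihood test of edgeR, with p-values adjusted over all 17121 genes by the Benjamini-Hochberg method. None of the 9 genes was called in any of the comparisons, by edgeR or by DESeq2. Of all genes tested, 1.96% were called between Tom+ and Tom- hepatocytes of CCl4-treated mice, 0% between those of oil-treated mice (although 1198 had an unadjusted p-value under 0.05), 7.92% between CCl4 and oil in Tom- hepatocytes, 5.24% between CCl4 and oil in Tom+ hepatocytes and 1.17% for the interaction of fraction and treatment. At an unadjusted p-value under 0.05, the numbers of the 9 genes in these comparisons were 1, 0, 1, 3 and 2, against 22.8%, 7.00%, 31.5%, 24.4% and 18.6% of all genes. At an adjusted p-value under 0.05 regardless of fold, 1 of the 9 genes remained, Mcl1 between CCl4 and oil in Tom+ hepatocytes, where 9.47% of all genes passed. In the other comparisons 5.79% (Tom+ against Tom- with CCl4), 0% (Tom+ against Tom- with oil), 16.1% (CCl4 against oil in Tom-) and 1.55% (interaction) of all genes passed that rule and 0 of the 9 did. The median log2 fold change of the 9 genes was 0.05 for Tom+ against Tom- with CCl4, -0.10 with oil, -0.08 for CCl4 against oil in Tom- and 0.06 in Tom+, against medians of all genes between 0.00 and 0.01.

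These nulls were not equally informative. For Bcl2l1, Bcl2l2, Mcl1, Bak1 and Bid the 95% confidence intervals of all 4 comparisons of groups lay within the threshold of 0.75. Their bounds allowed folds from 0.807 to 1.20 for Bcl2l2, 0.776 to 1.33 for Bcl2l1, 0.739 to 1.51 for Mcl1, 0.738 to 1.33 for Bak1 and 0.646 to 1.32 for Bid. For Bcl2, Bcl2l11, Bik and Bmf none of the 4 intervals lay within it, and the bounds allowed folds from 0.279 to 2.87 for Bcl2, 0.961 to 1.97 for Bcl2l11, 0.383 to 1.64 for Bik and 0.394 to 2.68 for Bmf. All these intervals come from the fit without the replicate number as a block. For Bmf, the standard error of Tom+ against Tom- was 0.50 without and 0.13 with the block with CCl4. With oil it was 0.50 and 0.12. The wide Bmf intervals between fractions thus depend on leaving the block out. Bcl2 and Bik had at most 35 and 29 counts in a library. Groups were also compared by whether their libraries overlapped. Bcl2 and Bcl2l1 did not overlap between Tom+ and Tom- with CCl4, a share of 9 genes to be read against 28.7% of all genes. Bcl2l11 did not overlap between Tom+ and Tom- with oil, where 11.7% of all genes did not, and between CCl4 and oil in Tom-, where 36.0% did not. Mcl1 and Bcl2l11 did not overlap between CCl4 and oil in Tom+, where the share of all genes was 29.3%.

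**Figure D2:**
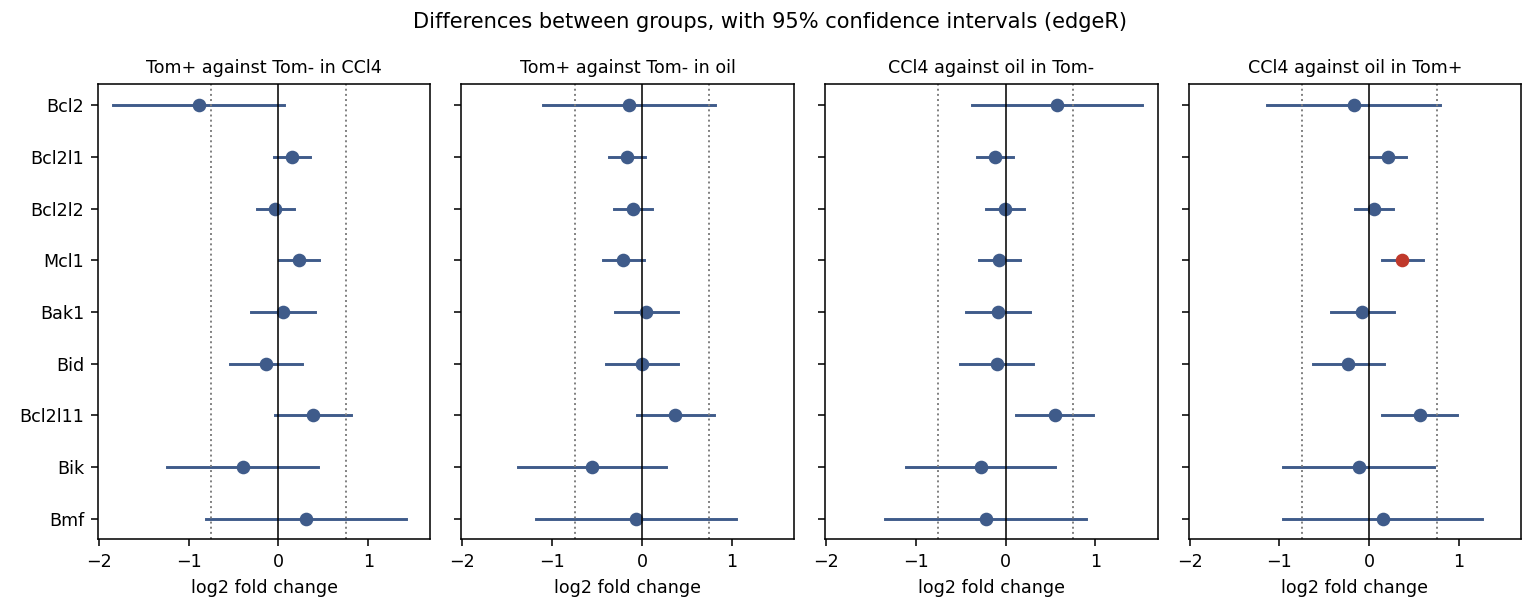
Log2 fold changes (x axis) of the 9 genes in the 4 comparisons of groups, each from 3 against 3 libraries, with 95% confidence intervals as bars, 0 as a solid line and the threshold of 0.75 in either direction as dotted lines. The red point, Mcl1 with CCl4 against oil in Tom+ (0.37), is the only one at an adjusted p-value under 0.05, and the widest bars are those of Bcl2, Bik and Bmf.

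Mcl1 (ENSMUSG00000038612, chromosome 3, 95658788 to 95663176, mm10) encodes the short-lived pro-survival protein that binds BAK and BIM. In Tom+ hepatocytes it was at 73.7, 74.6 and 92.4 CPM with oil and at 96.1, 102.7 and 111.8 CPM with CCl4, replicates 1 to 3. In Tom- hepatocytes it was at 96.7, 87.8 and 93.6 CPM with oil and at 82.7, 83.6 and 98.6 CPM with CCl4. The CCl4 and oil libraries were apart in Tom+ and interleaved in Tom-. In Tom+ hepatocytes Mcl1 had 103.5 ± 7.87 CPM with CCl4 and 80.2 ± 10.6 CPM with oil (SD, n = 3), a log2 fold change of 0.37 (standard error 0.11, 95% confidence interval 0.14 to 0.60) and an adjusted p-value of 0.0433 from edgeR, a higher level that passed the test but not the fold threshold. In Tom- hepatocytes the log2 fold change was -0.07 (adjusted p = 0.687, edgeR). The adjusted p-value depended on single libraries and on the fit, and moved both ways. In edgeR it was 0.0391 with RLE scaling, 0.0354 without the filter and 0.0131 without Tom+ oil replicate 3. With the replicate number as a block it was 0.00897 in edgeR. That block ties oil to CCl4 libraries of the same number, and the numbers did not clearly pair treatments. In DESeq2, without the block, it was 0.0157. In edgeR it was 0.0733 when only the 6 Tom+ libraries entered. With same-numbered Tom- and Tom+ libraries summed the log2 fold change was 0.18 (adjusted p = 0.231, edgeR). That sum pools both fractions, and so measures another quantity than the Tom+ comparison. Without Tom+ oil replicate 1 or 2, or without Tom+ CCl4 replicate 2 or 3, the adjusted p-value in edgeR was 0.174, 0.152, 0.0989 and 0.174, it was 0.0533 to 0.0574 without Tom- oil replicate 2 or 3 or Tom- CCl4 replicate 2, and it was 0.151 without the 2 oil libraries whose reporter level went against their label.

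Between fractions, Mcl1 was higher in Tom+ than in Tom- in 3 of 3 same-numbered pairs with CCl4 and lower in 3 of 3 pairs with oil. Only replicate 3 with oil had reporter levels that differed as labelled, and there Mcl1 was at 93.6 CPM in Tom- and 92.4 CPM in Tom+. The other oil pairs did not compare fractions that differed in reporter. The log2 fold change with CCl4 was 0.23 (adjusted p = 0.215 from edgeR, and 0.0480 once the replicate number entered as a block), and with oil it was -0.21 (adjusted p = 0.740, and 0.208 with the block). The difference of these differences, the interaction, was 0.44 (95% confidence interval 0.12 to 0.76), with an adjusted p-value of 0.140 from edgeR without and 0.0159 with the block. The summed zone 3 markers turned in the same way, with medians of 3720 CPM in Tom+ and 2003 CPM in Tom- with CCl4 and of 1352 CPM in Tom+ and 2855 CPM in Tom- with oil, and their part in the differences of Mcl1 and Bcl2l1 was not tested. Of all genes, 11.8% had all 3 CCl4 pairs in one direction and all 3 oil pairs in the other.

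Bcl2l1 (ENSMUSG00000007659, chromosome 2, 152780668 to 152831728) encodes BCL-XL, which resides in the outer mitochondrial membrane and holds BAX and BAK inactive. It was at 28.6, 32.0 and 32.7 CPM in Tom- and 27.0, 25.5 and 30.7 CPM in Tom+ with oil. With CCl4 it was at 29.2, 28.6 and 28.4 CPM in Tom- and 33.3, 29.5 and 33.3 CPM in Tom+. The Tom+ CCl4 libraries all lay above the Tom- CCl4 libraries, the lowest Tom+ value being 29.5 and the highest Tom- value 29.2 CPM, and with oil the fractions overlapped. In replicate 3 with oil, the oil pair whose reporter differed as labelled, Bcl2l1 was at 32.7 CPM in Tom- and 30.7 CPM in Tom+. Its pairs followed the order of Mcl1, Tom+ higher in 3 of 3 with CCl4 and lower in 3 of 3 with oil. The log2 fold changes were 0.16 (adjusted p = 0.348) and -0.17 (adjusted p = 0.771), and their difference was 0.32 (95% confidence interval 0.04 to 0.60, adjusted p = 0.210 from edgeR without and 0.0840 with the block). Across the 12 libraries the log2 CPM of Bcl2l1 and Mcl1 had a Pearson correlation of 0.67, a description over libraries that share treatments, fractions and replicate numbers.

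Bcl2l2 (ENSMUSG00000089682, chromosome 14, 54883377 to 54888234), which encodes BCL-W, had the narrowest range of the 9 genes. Its levels lay between 16.01 and 20.1 CPM in all 12 libraries, a ratio of 1.25 between the highest and the lowest. The group means were 18.9 ± 0.592 (Tom- oil), 17.6 ± 2.13 (Tom+ oil), 18.8 ± 0.969 (Tom- CCl4) and 18.4 ± 0.742 CPM (Tom+ CCl4; SD, n = 3 each). Its 594 exonic bases shared with Gm20521 on the same strand leave some reads uncertain, and 8 of its 12 values were not whole numbers.

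Bcl2 (ENSMUSG00000057329, chromosome 1, 106538178 to 106714274), a pro-survival gene that non-parenchymal liver cells also express, had only 12 to 35 counts per library. It shares 558 exonic bases with D630008O14Rik on the opposite strand, and 4 of its 12 values were not whole. With CCl4 it was at 0.859, 0.719 and 0.655 CPM in Tom- and at 0.369, 0.502 and 0.334 CPM in Tom+, without overlap. With oil the values were 0.316, 0.678 and 0.490 CPM in Tom- and 0.318, 0.324 and 0.735 CPM in Tom+, and these overlapped. The log2 fold change of Tom+ against Tom- with CCl4 was -0.89 (standard error 0.44, 95% confidence interval -1.84 to 0.06), with an adjusted p-value of 0.254 from edgeR. The same libraries differed in the summed level of 8 endothelial marker genes, which was 286 to 312 CPM in Tom- CCl4 and 150 to 201 CPM in Tom+ CCl4, none of the 8 being at 0 in all libraries of a group. The 8 macrophage or Kupffer cell markers summed to 80.9 to 103 CPM in Tom- CCl4 and 43.9 to 114 CPM in Tom+ CCl4. Their part in the difference of Bcl2 was not tested, and in bulk RNA fewer cells of a type and less RNA per cell cannot be told apart.

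**Figure D3:**
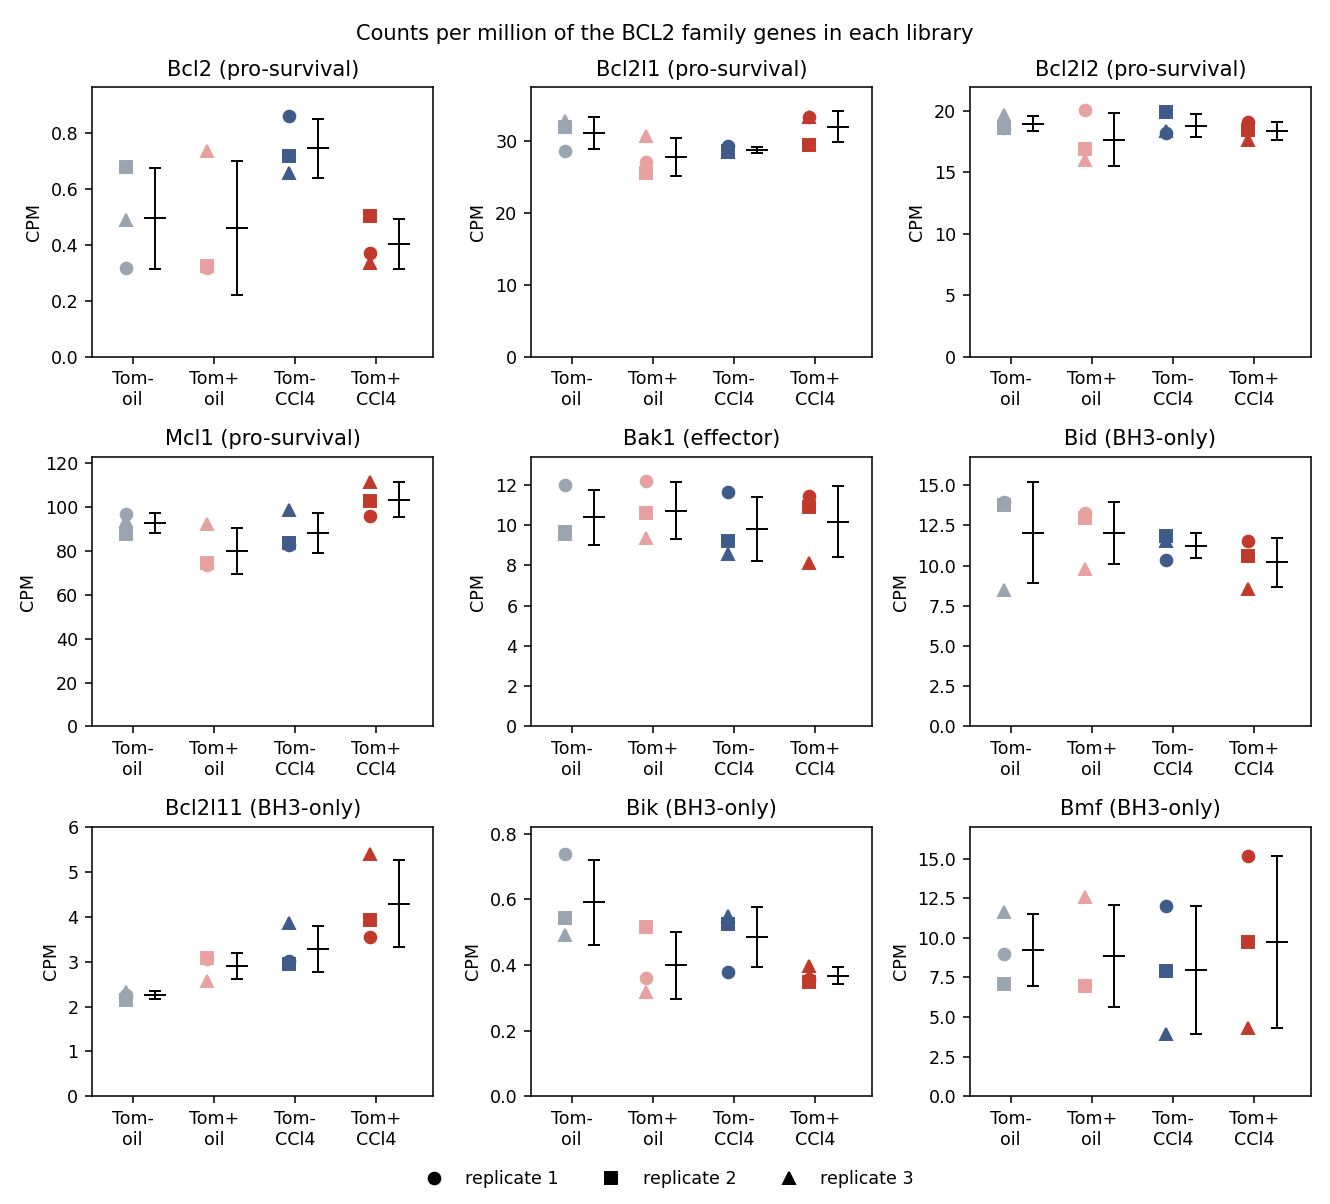
CPM (y axis, from 0) of each of the 9 genes in the 4 groups, with coloured symbols for libraries by replicate number and black bars for the mean ± SD (n = 3). Tom+ CCl4 libraries of Mcl1 (96.1 to 111.8 CPM) stand above the Tom+ oil libraries, Bcl2l11 has its lowest values in Tom- oil and its highest in Tom+ CCl4, and the replicates of Bmf are spread widely within each group.

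Bak1 (ENSMUSG00000057789, chromosome 17, 27019810 to 27029009), the effector gene, was at 8.14 to 12.2 CPM over the 12 libraries and its log2 fold changes lay between -0.08 and 0.05. Its group means lay between 9.81 ± 1.61 CPM in Tom- CCl4 and 10.7 ± 1.42 CPM in Tom+ oil (SD, n = 3). Replicate 1 had the highest value in each of the 4 groups, at 11.4 to 12.2 CPM, and replicate 3 the lowest, at 8.14 to 9.56 CPM. Bak1 shares 357 exonic bases with Ggnbp1 on the opposite strand. Bax, the other effector, was not one of the 9 genes and is described with the other family genes.

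Bcl2l11 (ENSMUSG00000027381, chromosome 2, 128126038 to 128162547) encodes BIM, a BH3-only protein that binds all pro-survival members. It was lowest in Tom- oil, at 2.27, 2.15 and 2.33 CPM, and at 3.06, 3.07 and 2.57 CPM in Tom+ oil. With CCl4 it was at 3.01, 2.96 and 3.87 CPM in Tom- and at 3.56, 3.93 and 5.41 CPM in Tom+. The Tom- oil libraries lay below all others, and the CCl4 libraries lay above the oil libraries of the same fraction without overlap. The log2 fold change of CCl4 against oil was 0.55 in Tom- (standard error 0.20, 95% confidence interval 0.12 to 0.97, adjusted p = 0.0787 from edgeR) and 0.56 in Tom+ (standard error 0.19, 95% confidence interval 0.14 to 0.98, adjusted p = 0.0904 from edgeR). When the counts of same-numbered Tom- and Tom+ libraries were summed, which needs no fraction label, Bcl2l11 had 3.85 CPM with CCl4 and 2.63 CPM with oil on average and a log2 fold change of 0.55 (95% confidence interval 0.16 to 0.93, adjusted p = 0.0802 from edgeR, where 8.18% of 17743 genes had an adjusted p-value under 0.05). None of these passed the threshold. From oil to CCl4 the summed stellate cell or fibroblast markers were also higher, with medians of 8.02 and 84.7 CPM in Tom- and 14.1 and 77.5 CPM in Tom+. The endothelial markers had medians of 143 and 298 CPM in Tom- but 172 and 174 CPM in Tom+. Those of the macrophage or Kupffer cell list were 16.4 and 86.3 CPM in Tom- and 26.0 and 48.2 CPM in Tom+. The part of other cells in the difference of Bcl2l11 was not tested. Tom+ was higher than Tom- in 3 of 3 pairs with CCl4 and in 3 of 3 with oil, by a log2 fold change of 0.39 with CCl4 (adjusted p = 0.260, edgeR) and 0.37 with oil (adjusted p = 0.758, edgeR). In replicate 3 with oil, the oil pair whose reporter differed as labelled, Bcl2l11 was at 2.33 CPM in Tom- and 2.57 CPM in Tom+. The interaction was 0.02 (95% confidence interval -0.59 to 0.62). The ratio of Mcl1 to Bcl2l11 in TPM was 96.8 ± 3.02 in Tom- oil, 66.0 ± 15.97 in Tom+ oil, 63.6 ± 3.34 in Tom- CCl4 and 57.8 ± 8.07 in Tom+ CCl4 (SD, n = 3).

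Bmf (ENSMUSG00000040093, chromosome 2, 118528757 to 118549687), whose BH3-only protein is bound to the cytoskeleton through dynein light chains until it is released, varied more between replicate numbers than between groups. With CCl4 replicates 1, 2 and 3 were at 12.01, 7.88 and 3.93 CPM in Tom- and at 15.2, 9.72 and 4.28 CPM in Tom+. With oil they were at 8.97, 7.11 and 11.6 CPM in Tom- and at 7.02, 6.97 and 12.6 CPM in Tom+. Both fractions of a number moved together, so that the means of the 3 numbers with CCl4 spanned 1.71 on the log2 scale while the difference between fractions within a number lay between 0.12 and 0.34. Tom+ was the higher in 3 of 3 CCl4 pairs. The log2 fold change was 0.31 with a standard error of 0.50 without the block and 0.26 with a standard error of 0.13 with it, and the adjusted p-values from edgeR were 0.768 and 0.172.

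**Figure D4:**
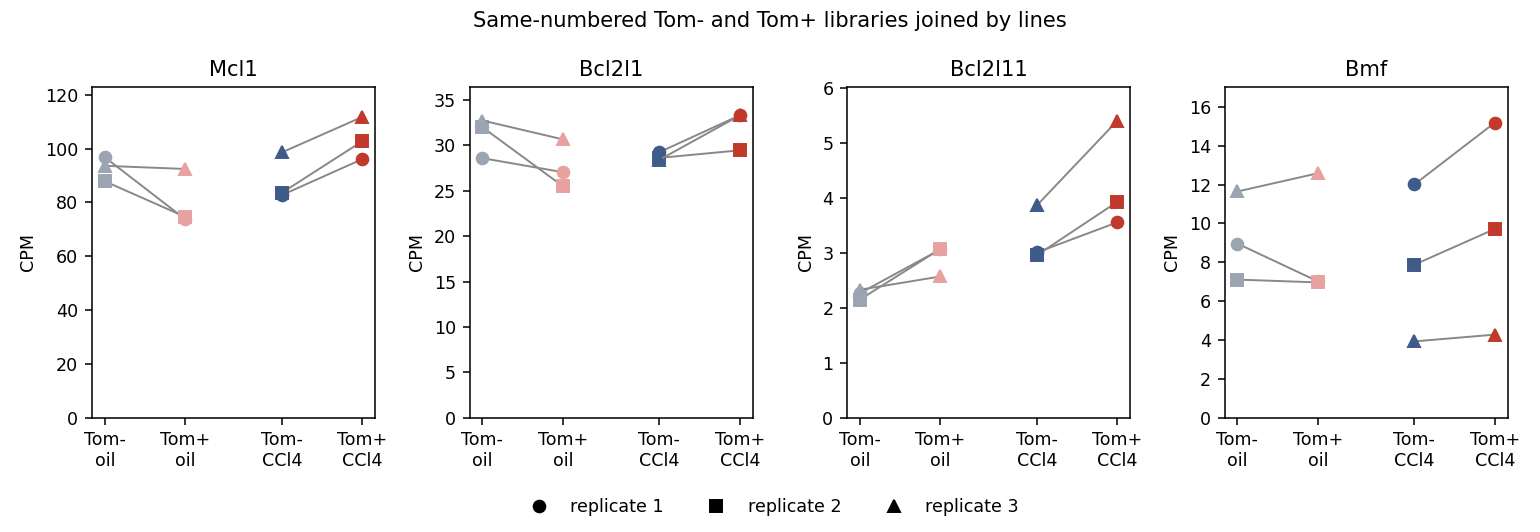
CPM (y axis, from 0) of Mcl1, Bcl2l1, Bcl2l11 and Bmf, with lines joining the Tom- and Tom+ libraries of the same replicate number and treatment. The lines of Mcl1 and Bcl2l1 go down in 3 of 3 pairs with oil and up in 3 of 3 with CCl4, those of Bcl2l11 go up in 3 of 3 pairs of both treatments, and those of Bmf keep the replicates apart with CCl4. Oil pairs follow the labels, and only replicate 3 with oil differed in reporter as labelled.

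Bid (ENSMUSG00000004446, chromosome 6, 120891930 to 120916853), the substrate of caspase-8, was at 14.0, 13.7 and 8.46 CPM in Tom- oil and at 13.3, 12.9 and 9.79 CPM in Tom+ oil. Replicate 3 was the lowest in both fractions. With CCl4 it was at 10.3, 11.8 and 11.5 CPM in Tom- and 11.5, 10.6 and 8.56 CPM in Tom+, and all 4 groups overlapped. Its log2 fold changes lay between -0.23 and -0.0031, with adjusted p-values of 0.490 to 0.999 from edgeR. Bid shares 628 exonic bases with Bcl2l13 on the opposite strand, and 7 of its 12 values were not whole. Bik (ENSMUSG00000016758, chromosome 15, 83526862 to 83544634), a BH3-only gene whose protein sits at the endoplasmic reticulum, had 13 to 29 counts per library and group means of 0.368 ± 0.0254 to 0.590 ± 0.131 CPM (SD, n = 3). It was lower in Tom+ in 3 of 3 pairs with either treatment, by a log2 fold change of -0.40 with CCl4 and -0.56 with oil (standard error 0.39 for each, adjusted p = 0.593 and 0.813, edgeR). In replicate 3 with oil, the oil pair whose reporter differed as labelled, Bik was at 0.490 CPM in Tom- and 0.318 CPM in Tom+. Within the 9 genes, the ratio of the summed pro-survival to the summed BH3-only levels in TPM was 6.63 ± 0.763 in Tom- oil, 5.90 ± 0.597 in Tom+ oil, 6.83 ± 1.15 in Tom- CCl4 and 7.92 ± 2.43 in Tom+ CCl4 (SD, n = 3), with overlapping ranges. Of the BH3-only genes only Bid, Bcl2l11, Bik and Bmf entered that ratio, so it does not cover the whole family.

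Among 16 other genes of the family, 9 were tested and 0 were called in any comparison, with 1, 0, 2, 1 and 0 at an adjusted p-value under 0.05 regardless of fold, in the order Tom+ against Tom- with CCl4 and with oil, CCl4 against oil in Tom- and in Tom+, and interaction. Bax, the other effector, was higher with CCl4 in both fractions. It was at 13.6, 12.7 and 11.9 CPM in Tom- oil and at 20.0, 17.9 and 26.0 CPM in Tom- CCl4, with a log2 fold change of 0.75 that fell just short of the fold threshold (adjusted p = 0.00722, edgeR). In Tom+ it was at 10.1, 13.8 and 13.2 CPM with oil and 17.0, 18.7 and 22.6 CPM with CCl4, with a log2 fold change of 0.65 (adjusted p = 0.0197, edgeR). Bax shares 192 exonic bases with Gm45808 on the same strand. Bnip3l, a mitophagy receptor related to the family, was higher in Tom+ than in Tom- with CCl4 (72.4 against 56.5 CPM, log2 fold change 0.36, adjusted p = 0.0403, edgeR). The smallest adjusted p-values of the other comparisons were those of Bok with oil (-0.54, adjusted p = 0.708) and of Bcl2l13 for the interaction (0.44, adjusted p = 0.115, and 0.0188 with the block). With the block, 3 of the 9 family genes had an adjusted p-value under 0.05 for Tom+ against Tom- with CCl4 and 3 for the interaction, and 0 were called. The share of all genes at an adjusted p-value under 0.05 with the block is not given here. These counts, and the like counts of the lists below, therefore cannot be read against a background.

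Of 21 genes of the apoptosome, caspases and their inhibitors, all tested, 2 were called higher with CCl4 in Tom- hepatocytes and 1 lower in Tom+ than in Tom- with CCl4. Apaf1, the scaffold of the apoptosome, was at 1.93, 1.47 and 1.72 CPM in Tom- oil and 3.99, 3.37 and 4.71 CPM in Tom- CCl4 (log2 fold change 1.24, adjusted p = 0.00221, edgeR). Dffb, the nuclease that cuts DNA in apoptosis, was at 2.004, 1.72 and 1.57 CPM in Tom- oil, 3.94, 3.40 and 3.06 CPM in Tom- CCl4 and 1.91, 1.68 and 2.02 CPM in Tom+ CCl4. Its log2 fold change was 0.97 with CCl4 in Tom- (adjusted p = 0.00597, edgeR) and -0.89 in Tom+ against Tom- with CCl4 (adjusted p = 0.0208, edgeR). With CCl4 against oil in Tom-, markers of other cells were higher, as both genes were. In Tom- the summed endothelial markers had medians of 143 CPM with oil and 298 CPM with CCl4, and the stellate cell or fibroblast markers 8.02 and 84.7 CPM. The endothelial genes Cdh5, Eng and Pecam1 were called higher with CCl4 in Tom- (log2 fold changes 1.49, 1.19 and 1.20) and lower in Tom+ than in Tom- with CCl4 (-0.83, -0.80 and -0.997), with edgeR adjusted p-values of 0.000828 to 0.0343. Kdr and Clec4g were also called in both comparisons. Stab2, Oit3 and Lyve1 were called higher with CCl4 in Tom-, but not lower in Tom+ (-0.58, -0.69 and -0.85). The part of other cells in the differences of Apaf1 and Dffb was not tested. In Tom+ the smallest adjusted p-value between CCl4 and oil was that of Aifm1, a mitochondrial flavoprotein released in cell death, with 0.36 (adjusted p = 0.00884, edgeR). With the block, 6 genes of the list had an adjusted p-value under 0.05 for Tom+ against Tom- with CCl4, against 2 without it, and 3 for the interaction, against 0, among them Xiap, an inhibitor of caspases (0.34 without the block, adjusted p = 0.106 without and 0.0207 with it). The medians of the list were 0.16, 0.02, -0.18, -0.04 and 0.08 over the 5 comparisons in the same order.

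Of 16 death receptor genes upstream of Bid, 14 were tested and 0 called, with 0, 0, 0, 1 and 0 at an adjusted p-value under 0.05. The 1 was Casp8, which encodes the protease that activates BID, at 18.5 CPM in Tom+ oil and 24.9 CPM in Tom+ CCl4 (log2 fold change 0.43, adjusted p = 0.0211, edgeR). For Tom+ against Tom- with CCl4 its log2 fold change was 0.35 (adjusted p = 0.0684, and 0.0310 with the block), and with the block 3 genes of the list had an adjusted p-value under 0.05 there. Of 23 regulators of BCL2 family proteins, all tested, 0 were called, with 3, 0, 6, 3 and 1 at an adjusted p-value under 0.05. Usp9x, which encodes a deubiquitinase that stabilises MCL1, was at 157, 163 and 161 CPM in Tom- oil and at 110, 99.7 and 105 CPM in Tom- CCl4. In Tom+ it was at 156, 149.5 and 165 CPM with oil and at 145, 140 and 142 CPM with CCl4. It was lower with CCl4 in Tom- (log2 fold change -0.61, adjusted p = 0.000287) and higher in Tom+ than in Tom- with CCl4 (0.45, adjusted p = 0.00694), and the interaction was 0.48 (adjusted p = 0.0446, edgeR). Dynll1, the dynein light chain that binds BIM, was higher with CCl4 in Tom+ (30.8 against 18.5 CPM, log2 fold change 0.73, adjusted p = 0.00737, edgeR). With the block, 12 regulators had an adjusted p-value under 0.05 for Tom+ against Tom- with CCl4 and 6 for the interaction, counts again without a share of all genes beside them. Dynll1 was called for the interaction with the block, as were 938 of all genes. The medians of the death receptor list were 0.12, -0.07, 0.08, 0.22 and 0.11, and those of the regulators 0.11, -0.04, -0.10, 0.06 and 0.15.

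Over the 12 libraries and 13060 genes with a mean of at least 1 CPM (13061 for Bcl2 and Bik), the gene whose log2 CPM was most like that of Mcl1 was Decr1 (Pearson r = 0.97), followed by Ap3s1 (0.95). For Bcl2l11 they were Acaca (0.96) and Gnai2 (0.93), for Bmf Prtn3 (0.90) and Dnajc14 (0.88), and for Bcl2l1 Mrpl10 (0.92) and Gm29585 (0.91). Bak1 was most like Map2k3 (0.96) and Qrich1 (0.92), Bid like Tfcp2 (0.93) and Gmppb (0.91), Bik like Tmem203 (0.95) and Gm4149 (0.90), Bcl2 like Nabp1 (0.89) and Cpt1b (0.87), and Bcl2l2 like Cc2d1a (0.83) and Rnf8 (0.77). These are the highest of many correlations over libraries that share treatment and replicate number, and are given as a description.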

How the data were processed

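The authors checked read quality (fastp v0.23.2), mapped to the mm10 build (HISAT2 v2.1.0) and used DESeq2 (v1.42.1) for their own tests. The libraries were strand-specific, and TPM of the study came from TPMcalculator. The deposited table, one for the series, holds estimated counts per gene for 12 libraries, with 30.4 to 32.9% of nonzero values not whole, and with gene lengths. The program that made these counts, its strand setting and the annotation version are not given in the sources used here, so genes that share exons, on either strand, are uncertain.

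Values were rounded to whole numbers for the tests. Genes were filtered by edgeR (v4.0.16, R v4.3.3) and scaled by TMM, and 1 quasi-likelihood fit over all 12 libraries gave the 4 comparisons of groups and the interaction, with p-values adjusted by Benjamini-Hochberg over all genes tested. The design had been written for whole counts. CPM are TMM-scaled, and TPM were computed from the counts and the deposited lengths. Libraries of the same number in Tom+ and Tom- deviated together, with correlations of their deviations from group means of 0.187 to 0.401 with CCl4 and 0.205 to 0.318 with oil. The highest correlation of other pairs was 0.0465 with CCl4 and 0.0205 with oil. Deviations sum to 0 within a group, so the negative means of other pairs (-0.138 and -0.125) follow from the same-number values and are no separate support. The numbers were taken to pair the fractions on the same-number values, and the labels do not say what a number shares. Across treatments the same-number correlations were 0.00898 to 0.0483 in Tom- and 0.0182 to 0.226 in Tom+. Other pairs reached 0.0344 in Tom- and 0.135 in Tom+, so the numbers did not clearly pair treatments. Alternatives were a replicate block, DESeq2 (v1.42.0), RLE scaling, no filter, 6 libraries per fit, each library left out, the 2 oil libraries against their labels left out, adjusted p alone, the TPM scale and, chosen after seeing the data, same-numbered libraries summed. The scripts were tested on simulated counts. The 9 genes and the gene lists were chosen with earlier results of these data known. Named by rule were the 9 genes, up to 4 called genes with the largest change per list and comparison, or else the gene with the smallest adjusted p-value, and the 2 genes most like each of the 9. Intervals are 95% and cover the spread between libraries. Promoter windows came from RefSeq (GRCm38.p6), matched by symbol.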

Additional observations from a re-analysis of the deposited data

Results flagged for a closer look

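The difference between Tom+ and Tom- hepatocytes had opposite signs with CCl4 and with oil in every same-numbered pair for Mcl1 and for Bcl2l1. With oil only replicate 3 had reporter levels that differed as labelled. There Mcl1 was at 93.6 CPM in Tom- and 92.4 CPM in Tom+, and Bcl2l1 at 32.7 and 30.7 CPM. The interaction of fraction and treatment was 0.438 on the log2 scale for Mcl1 (edgeR adjusted p = 0.140 without and 0.0159 with the replicate block). It was 0.322 for Bcl2l1 (edgeR adjusted p = 0.210 without and 0.0840 with the block). Neither passed the threshold without the block. Over the alternatives the Mcl1 interaction had adjusted p-values from edgeR and DESeq2 of 0.0159 to 0.380, the highest without the 2 oil libraries whose reporter level went against their label. Of all 17121 genes tested, 2026 had such opposite pairs.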

How the results depend on the processing

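No setting brought any of the 9 genes past both thresholds, and with the adjusted p-value alone 1 gene, Mcl1, was called between CCl4 and oil in Tom+. With the replicate block, which by the pairing applies to Tom+ against Tom-, 0 of the 9 genes were called, and the log2 fold change of Bid with oil turned from -0.0031 to 0.012. The block, with which 682, 40 and 938 of all genes were called for Tom+ against Tom- with CCl4, with oil and for the interaction, against 336, 0 and 201 without it, also took Mcl1 to an adjusted p-value under 0.05 with CCl4 and for the interaction. DESeq2 called 530, 17 and 566 genes in these comparisons. Leaving out 1 library gave 77 to 352, 0 to 26 and 42 to 253 genes, and 902 to 1404 (against 1356) and 482 to 933 (against 897) for CCl4 against oil in Tom- and in Tom+. Adjusted p alone gave 992, 2761 and 1622 genes for Tom+ against Tom- with CCl4 and for CCl4 against oil in Tom- and Tom+. Summing same-numbered libraries, chosen after seeing the data, gave 848 genes for CCl4 against oil.

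Signs turned only for differences that passed no test, and the cause was not tested. Without the 2 oil libraries against their labels, Bid and Bmf had 0.045 and 0.043 for Tom+ against Tom- with oil, Bak1 and Bid 0.034 and 0.020 for CCl4 against oil in Tom-, Bik 0.11 for CCl4 against oil in Tom+ and Bak1 -0.11 for the interaction. With same-numbered libraries summed, CCl4 against oil was 0.055 for Bcl2l1, 0.0070 for Bcl2l2, 0.18 for Mcl1 and 0.018 for Bmf, where Tom- alone was negative, and 0.19 for Bcl2, where Tom+ alone was negative. The sum pools both fractions, so it measures another quantity than either fraction alone. Leaving out 1 library at a time turned other signs. For Tom+ against Tom- with CCl4 the ranges of log2 fold change were Bcl2l2 -0.064 to 0.011, Bak1 -0.045 to 0.19 and Bmf -0.18 to 0.74. For Tom+ against Tom- with oil the ranges of log2 fold change were Bid -0.20 to 0.12, Bcl2 -0.63 to 0.15, Bak1 -0.056 to 0.16 and Bmf -0.40 to 0.14. For CCl4 against oil in Tom- the ranges of log2 fold change were Bak1 -0.22 to 0.026, Bid -0.30 to 0.012, Bcl2l2 -0.055 to 0.014 and Bmf -0.66 to 0.11. For CCl4 against oil in Tom+ the ranges of log2 fold change were Bak1 -0.18 to 0.058, Bik -0.25 to 0.11, Bcl2 -0.39 to 0.32, Bcl2l2 -0.0093 to 0.16 and Bmf -0.34 to 0.50. For the interaction the ranges of log2 fold change were Bak1 -0.10 to 0.15, Bik -0.022 to 0.39, Bid -0.25 to 0.071, Bcl2l11 -0.18 to 0.15 and Bmf -0.12 to 0.81. Of the values of the 9 genes under the alternatives, 795 kept the sign and stayed outside the rule that joins adjusted p and fold. In 12 of these 795, all of Mcl1, the adjusted p-value alone crossed 0.05, for Tom+ against Tom- with CCl4 and the interaction under the block, and for CCl4 against oil in Tom+ with 6 libraries (0.0733), with libraries summed (0.231) and without libraries named in the report. Bcl2 and Bik had at most 35 and 29 counts per library.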
